A study of Mus musculus with 22 samples.

Results

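The genes described here are 36 genes of insulin, AKT, AMPK and mTOR kinase signalling in the mouse testis, taken by gene symbol from the 17931 symbols of a testes RNA-seq count table. They code for the insulin receptor and its substrates, PI3K subunits, PDPK1 and AKT, FOXO factors and GSK3, the TSC and mTOR complexes with their substrates, and LKB1 with the AMPK subunits. All 36 were in the table and all 36 had enough counts to be tested. RNA came from whole testes of age-matched littermates aged 7 months, in 3 pairs of 1 WT male and 1 MLX KO male, with 1 library per male. WT males were verified fertile breeders. MLX KO males carried a constitutive deletion of *Mlx* exons 3 to 6, which code for the region used for dimerization and DNA binding, made in 129S4 AK7 embryonic stem cells. No cell type was purified, so each library mixed germ cells, Sertoli cells and interstitial cells.

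MLX is a transcription factor that pairs with MondoA or ChREBP, both sensors of glucose-derived metabolites, and binds E-box sequences. Insulin acts through its receptor and the IRS adaptors to activate PI3K, whose lipid product brings AKT to the membrane, where PDPK1 and mTOR complex 2 phosphorylate it. AKT then inhibits FOXO factors, GSK3 and the TSC complex. Relief from TSC lets RHEB activate mTOR complex 1, which promotes growth and holds TFEB and autophagy back. AMPK, switched on by LKB1 when energy is low, opposes mTOR complex 1. In the testis, insulin family signalling and the balance of mTOR complex 1 are known for their part in Sertoli cell number and in keeping spermatogonial stem cells, and AMPK for its part in sperm metabolism.

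Because MLX dimers bind E-boxes, the promoters of the members were searched for the letters CACGTG. RefSeq promoters (GRCm38.p6, 250 bases before to 50 after a transcript start) were found for 32 of the 36 members, 47 promoters in all. *Deptor*, *Foxo4*, *Rps6kb2* and *Insr* had no entry in the table used. The motif, which reads the same on both strands, was in 3 of the 47 member promoters (6.38%), against 7.15% of all 32851 promoters. The matches were in *Irs1*, *Irs2* and *Rheb*, and their bases are shown so that these genes can be set beside their RNA levels. The sequences run 5′ to 3′ on the minus strand with the E-box in capitals. They cover chr1:82291440-82291689 for *Irs1* and chr8:11008930-11009179 for *Irs2*, each the 250 bases before the start, and chr5:24842440-24842469 for *Rheb*, 30 bases around the motif.
Irs1: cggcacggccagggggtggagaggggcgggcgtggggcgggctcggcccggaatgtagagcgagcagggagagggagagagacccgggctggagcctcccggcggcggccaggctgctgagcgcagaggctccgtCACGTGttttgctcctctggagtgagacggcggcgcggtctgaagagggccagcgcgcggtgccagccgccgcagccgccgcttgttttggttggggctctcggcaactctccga
Irs2: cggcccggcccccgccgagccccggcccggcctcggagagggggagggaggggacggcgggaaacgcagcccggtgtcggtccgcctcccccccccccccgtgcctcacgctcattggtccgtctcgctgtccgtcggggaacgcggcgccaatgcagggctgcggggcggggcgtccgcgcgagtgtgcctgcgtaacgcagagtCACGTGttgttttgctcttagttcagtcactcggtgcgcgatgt
Rheb: gccgcgcgcggtCACGTGggtgtgttgttg
The E-box began 115 bases before the RefSeq start in *Irs1*, 44 in *Irs2* and 96 in *Rheb*. In GENCODE vM21 the *Rheb* gene runs from 24802823 to 24842624 on chromosome 5, so by that annotation the stretch shown lies inside the gene. The same annotation starts *Irs1* at 82291416 and *Irs2* at 11008458 on the minus strand. By those starts their E-boxes lie farther upstream than 115 and 44 bases. Of these 3 genes, *Irs1* was higher in MLX KO testes, and *Irs2* and *Rheb* did not pass the test, with values given below. A FOXO motif (GTAAACA on either strand) was in the promoters of *Akt1*, *Pik3cg* and *Stk11*, again 3 of 47 (6.38%), against 3.65% of all promoters. The cAMP response element letters TGACGTCA were in 0 of 47, against 1.79% of all promoters. A match describes letters only and is not a binding site.

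The libraries held from 16674678 to 19742726 counts. Levels are given as CPM, counts normalized to a common library size with TMM scaling, and differences as log2 fold changes (LFC) of MLX KO over WT tested with the quasi-likelihood method of edgeR, p-values adjusted after Benjamini-Hochberg over 14640 genes. Counts on *Mlx* itself were 128, 96 and 98 for WT against 94, 109 and 102 for MLX KO libraries (LFC -0.18, SE 0.14, adjusted p = 0.326 from edgeR). That count includes exons the deletion left in place and shares exon bases with *Psmc3ip* on the opposite strand, so it does not check the labels, and every direction below is that of the libraries labelled KO. The MLX target *Txnip* was lower (LFC -1.21, SE 0.14, adjusted p = 6.7e-05 from edgeR). Library KO1 stood apart from KO2 and KO3, with a chi-square per degree of freedom of 8.28 against both, where the other pairs of one genotype lay between 2.74 and 4.29. Marker genes of the testis cell types moved with genotype. Elongating spermatid markers were lower for 12 of 12 genes, with summed levels of 24100 to 25100 CPM in WT and 14400 to 17600 in MLX KO libraries. Round spermatid markers were lower for 10 of 10 (3230 to 3300 CPM against 2520 to 2730) and spermatocyte markers for 8 of 10 (1480 to 1530 CPM against 1310 to 1370). Sertoli markers were higher for 10 of 10 (906 to 954 CPM against 1390 to 1680) and Leydig markers for 9 of 9 (901 to 924 CPM against 1910 to 2530). Macrophage markers were higher for 10 of 12 and lower for *Aif1* and *Fcgr3*, with summed levels of 464 to 525 CPM in WT and 452 to 497 in MLX KO. Of the spermatogonial markers 2 of the 9 tested were higher and 1 lower (147 to 151 CPM against 161 to 173), of the endothelial markers 3 of 7 were higher (41.9 to 49.8 CPM against 59.9 to 66.5), of the peritubular myoid markers 4 of 6 were higher and 1 lower (310 to 369 CPM against 309 to 325), and of the lymphocyte markers 0 of 3 tested passed (3.94 to 6.99 CPM against 3.87 to 7.74). The part of cell makeup in the results below was not tested, and in whole tissue fewer cells of a type and less RNA per cell cannot be told apart.

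Of the 36 members, 17 differed between genotypes at an adjusted p under 0.05 in edgeR, 47.2% of the list. Over all 14640 genes tested 45.4% passed, so the share among the members was near that of the whole table. Of the members, 11 were higher in MLX KO testes (30.6%, all genes 24.8%) and 6 lower (16.7%, all genes 20.6%). The median LFC was 0.15 over the members and 0.03 over all genes. CPM values of the 2 genotypes did not overlap for 16 members that were higher (all genes 30.3%) and 9 that were lower (all genes 25.9%). For 31 of the 36 the sign of the LFC was that of 3 of 3 pairs. The share of all genes with such a sign was not computed, so this count does not set the members apart. The higher members were *Irs1*, *Pik3cg*, *Pik3r1*, *Akt1*, *Akt2*, *Foxo1*, *Foxo3*, *Rictor*, *Deptor*, *Rps6kb1* and *Prkab1*. The lower members were *Pik3cd*, *Pdpk1*, *Tsc1*, *Mtor*, *Stk11* and *Prkag2*. Increases were the larger changes, up to an LFC of 1.38 for *Deptor*, while no decrease went beyond -0.29, that of *Prkag2*. The lower calls depended on whether library size alone was used. With the size factors of DESeq2 or upper-quartile normalization in place of TMM, edgeR kept all 6. With library size alone in place of TMM, the median LFC of all genes moved up by 0.14, and edgeR called 21 members higher (all genes 36.5%) and 0 lower (all genes 8.66%), with all 11 higher calls kept and all 6 lower calls lost.

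**Figure D1:**
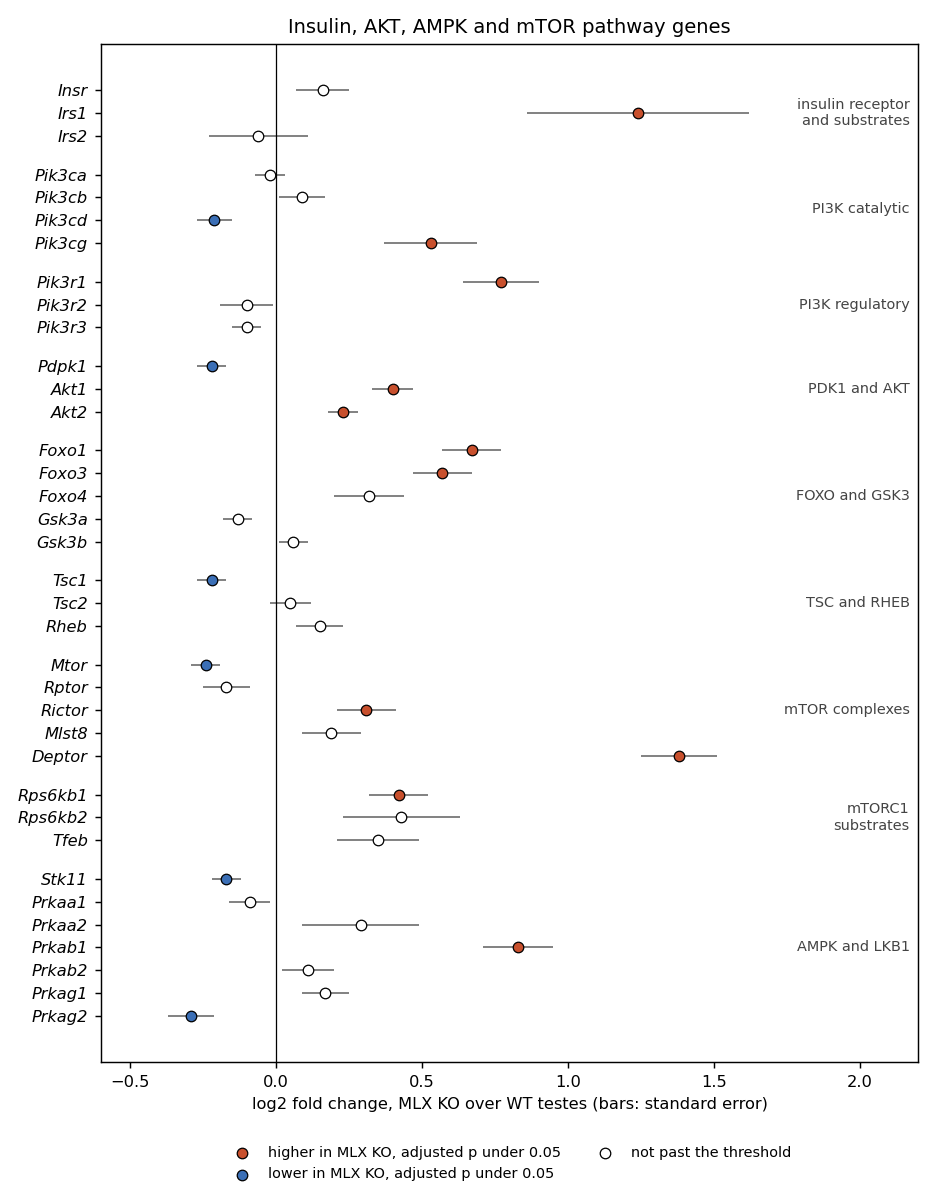
Points give the log2 fold change of each member, MLX KO over WT testes, with bars for the standard error derived from the edgeR test statistic (3 libraries per genotype), ordered by role from the insulin receptor at the top to AMPK at the bottom. Red points are the 11 higher and blue points the 6 lower members at an adjusted p under 0.05, white points the other 19, and *Deptor* (1.38) and *Irs1* (1.24) lie farthest to the right.

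WT testes held very unequal levels of the members, compared here as CPM per kilobase of exon. *Prkag2* (40.8 ± 3.14, SD, n = 3) and *Mtor* (34.9 ± 0.894, SD, n = 3) had the highest levels, and their WT libraries did not overlap on this scale. *Pdpk1*, *Stk11*, *Gsk3a* and *Pik3r3* followed, with mean CPM per kilobase of 27.3, 25.9, 24.3 and 21.4. At the other end were *Irs1* (0.174 ± 0.0969, SD, n = 3), *Prkaa2* (0.397 ± 0.061), *Pik3cg* (0.424 ± 0.0691) and *Rps6kb2* (0.465 ± 0.104), all of them below 1 CPM per kilobase and the last 3 within their spread of each other. Within each family the WT testis thus favoured some members, by RNA level per exon length. Among the class I PI3K catalytic genes *Pik3cd* was at 16.5, *Pik3ca* at 5.46, *Pik3cb* at 2.50 and *Pik3cg* at 0.424 CPM per kilobase. Among the AMPK subunits, the catalytic *Prkaa1* was at 8.21 and *Prkaa2* at 0.397, and the regulatory *Prkag2* was at 40.8 and *Prkag1* at 9.60 CPM per kilobase.

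**Figure D2:**
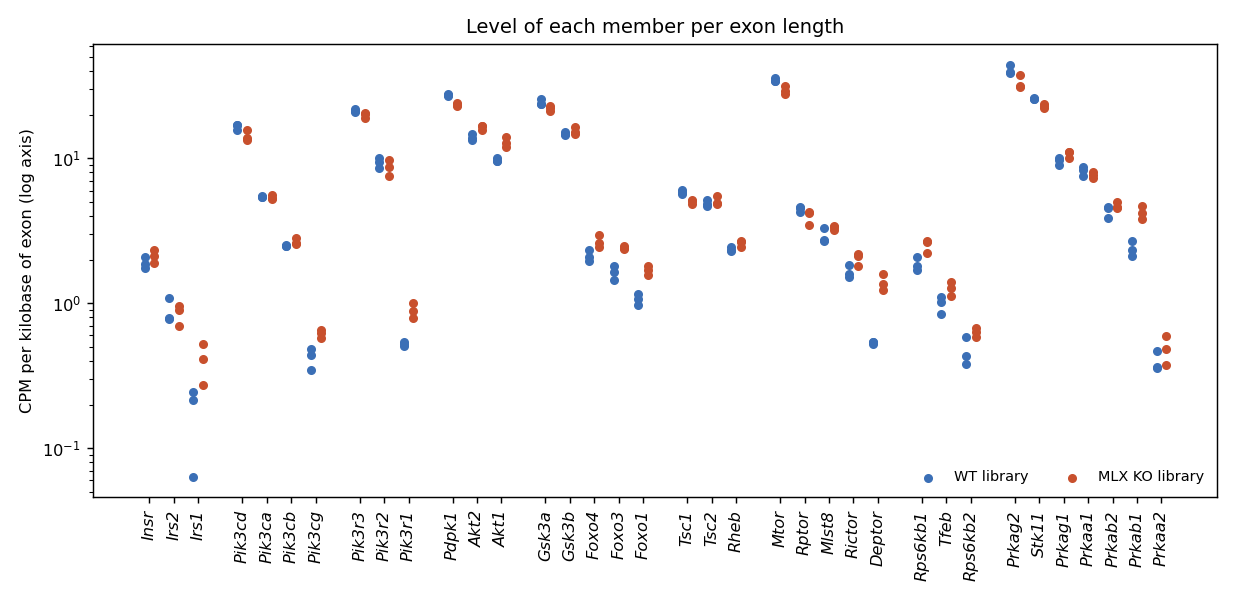
Each point is 1 library, with CPM per kilobase of exon on a log axis, WT in blue and MLX KO in red, and members are grouped by role and ordered by WT mean within a role. WT means run from 0.174 for *Irs1* to 40.8 for *Prkag2*.

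The direction of the calls went with the level. Of the 18 members with a mean over the 6 libraries above the member median of 25.3 CPM, 3 were higher (*Akt1*, *Akt2* and *Rictor*) and 6 lower in MLX KO, with a median LFC of -0.10. Of the 18 at or below it, 8 were higher and 0 lower, with a median LFC of 0.38. All genes showed the same tilt. Above that level 16.3% of genes were higher and 39.3% lower, and at or below it 31.7% were higher and 5.38% lower.

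Insulin signalling begins with the receptor *Insr*, on chromosome 8 of mm10 from 3122061 to 3279617. Its levels were 25.5, 24.1 and 28.4 CPM in WT and 26.3, 29.2 and 32.0 CPM in MLX KO libraries. The groups overlapped, and the difference did not pass the test (LFC 0.16, SE 0.09, adjusted p = 0.166 from edgeR). *Irs1*, an adaptor that carries the signal from the receptor to PI3K and lies on chromosome 1 from 82233101 to 82291416, was counted 11, 35 and 35 times in the WT libraries, against 93, 45 and 71 times in MLX KO libraries. All MLX KO libraries were above all WT libraries, but the spread was wide, with WT1 lowest and KO1 highest. The mean was 1.59 ± 0.886 CPM (SD, n = 3) in WT and 3.68 ± 1.16 CPM (SD, n = 3) in MLX KO libraries, and the gene rose (LFC 1.24, SE 0.38, adjusted p = 0.0197 from edgeR). Without KO1 the LFC was 1.01 with an adjusted p of 0.0561 in edgeR, and DESeq2 with the littermate pair as a block gave an adjusted p of 0.211. Of the *Irs1* exon bases, 30.9% are shared with *Gm9747* on the opposite strand. Its relative *Irs2* was at 4.96, 5.02 and 6.82 CPM in WT and 4.44, 5.64 and 6.09 CPM in MLX KO libraries, fully overlapping (LFC -0.06, SE 0.17, adjusted p = 0.807 from edgeR).

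PI3K pairs a catalytic with a regulatory subunit, and in each set 1 gene of low level rose. *Pik3r1*, which codes for the regulatory subunit p85-alpha and lies on chromosome 13 from 101680563 to 101768217, was at 5.48, 5.09 and 5.24 CPM in WT and 7.94, 8.85 and 10.2 CPM in MLX KO libraries. WT values were tight and every MLX KO value was above them (LFC 0.77, SE 0.13, adjusted p = 8.11e-04 from edgeR). The other regulatory genes did not pass. *Pik3r2* ranged from 35.7 to 42.0 CPM in WT and from 31.5 to 40.9 CPM in MLX KO libraries (LFC -0.10, adjusted p = 0.43 from edgeR). *Pik3r3* lay between 111 and 116 CPM in WT and between 101 and 109 CPM in MLX KO libraries, below without overlap but not past the threshold (LFC -0.10, adjusted p = 0.102 from edgeR). Its count shares 24.3% of exon bases with *Gm49337* on the same strand.

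Among the catalytic genes, *Pik3cg*, the gamma subunit best known from leukocytes, was at 4.06, 2.93 and 3.72 CPM in WT and 5.47, 4.87 and 5.24 CPM in MLX KO libraries. It rose without overlap (LFC 0.53, SE 0.16, adjusted p = 0.0183 from edgeR), a call lost in DESeq2 both without the pair as a block (adjusted p = 0.0771) and with it (adjusted p = 0.176), and in edgeR without WT2 or KO3 (LFC 0.41 and 0.53). *Pik3cd*, the delta subunit and also leukocyte-rich, was at 107, 105 and 97.6 CPM in WT and 97.4, 86.6 and 83.6 CPM in MLX KO libraries. The groups came within a fraction of 1 CPM of each other, and the gene was lower (LFC -0.21, SE 0.06, adjusted p = 0.0186 from edgeR). The call was lost on leaving out any 1 of WT1, WT2, KO2 or KO3 (LFC from -0.20 to -0.16). The widely expressed *Pik3ca* and *Pik3cb* did not pass (LFC -0.02 and 0.09).

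With TMM scaling, AKT and its activator moved in opposite directions. *Pdpk1*, the kinase that phosphorylates AKT in its activation loop, lies on chromosome 17 from 24073680 to 24150924 and was at 303, 294 and 299 CPM in WT and 264, 257 and 251 CPM in MLX KO libraries. All 3 MLX KO libraries were lower (LFC -0.22, SE 0.05, adjusted p = 0.00273 from edgeR), a fall of 14.0% on the CPM scale. The study reports *Pdpk1* as bound by MLX and MAX, from ChIP-Seq samples not analysed here. Its lower RNA in MLX KO testes is also reported there, from these same libraries. *Akt1*, on chromosome 12 from 112653821 to 112674884, was at 41.5, 39.6 and 39.4 CPM in WT and 48.9, 57.7 and 52.1 CPM in MLX KO libraries. *Akt2*, the isoform tied to insulin-driven glucose uptake, was at 96.4, 105 and 99.2 CPM in WT and 112, 120 and 119 CPM in MLX KO libraries. Neither gene overlapped between genotypes, and both rose, *Akt1* by an LFC of 0.40 (error 0.07 as SE, adjusted p = 9.01e-04 from edgeR) and *Akt2* by 0.23 (SE 0.05, adjusted p = 0.00427 from edgeR).

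Of the FOXO factors, which AKT keeps out of the nucleus, 2 of 3 members rose (all genes 24.8%). Each of the 3 lay below the member median of 25.3 CPM, where 31.7% of all genes were higher and 5.38% lower. *Foxo1*, on chromosome 3 from 52268336 to 52353221, is used in the testis as a factor of spermatogonial stem cells and was at 9.96, 8.39 and 9.25 CPM in WT and 13.6, 15.8 and 14.8 CPM in MLX KO libraries. *Foxo3*, on chromosome 10 from 42181841 to 42276755, was at 12.5, 10.9 and 13.7 CPM in WT and 18.8, 18.2 and 17.9 CPM in MLX KO libraries. The genotypes were well apart for both, at LFC 0.67 for *Foxo1* (SE 0.10, adjusted p = 4.66e-04 from edgeR) and 0.57 for *Foxo3* (SE 0.10, adjusted p = 8.58e-04 from edgeR). *Foxo4* was at 8.17, 6.87 and 7.33 CPM in WT and 9.13, 8.52 and 10.4 CPM in MLX KO libraries. These did not overlap either, but the gene lay just outside the threshold (LFC 0.32, SE 0.12, adjusted p = 0.0502 from edgeR) and passed with the littermate pair as a block (adjusted p = 0.0449 from edgeR), without WT1 or KO2 (LFC 0.39 in both), and under 3 other scalings or filters (LFC from 0.33 to 0.46).

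GSK3, the other AKT substrate among the members, restrains glycogen synthesis and beta-catenin. *Gsk3a* was at 68.3, 74.0 and 69.2 CPM in WT and 61.5, 66.8 and 64.2 CPM in MLX KO libraries. It was lower without overlap but did not pass (LFC -0.13, SE 0.05, adjusted p = 0.0635 from edgeR). With the size factors of DESeq2 in place of TMM it passed as lower (LFC -0.16, adjusted p = 0.0312 from edgeR). Of the *Gsk3a* exon bases, 28.3% are shared with the antisense gene *9130221H12Rik*. *Gsk3b* ranged from 142 to 151 CPM in WT and from 144 to 162 CPM in MLX KO libraries and did not pass (LFC 0.06, adjusted p = 0.413 from edgeR).

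**Figure D3:**
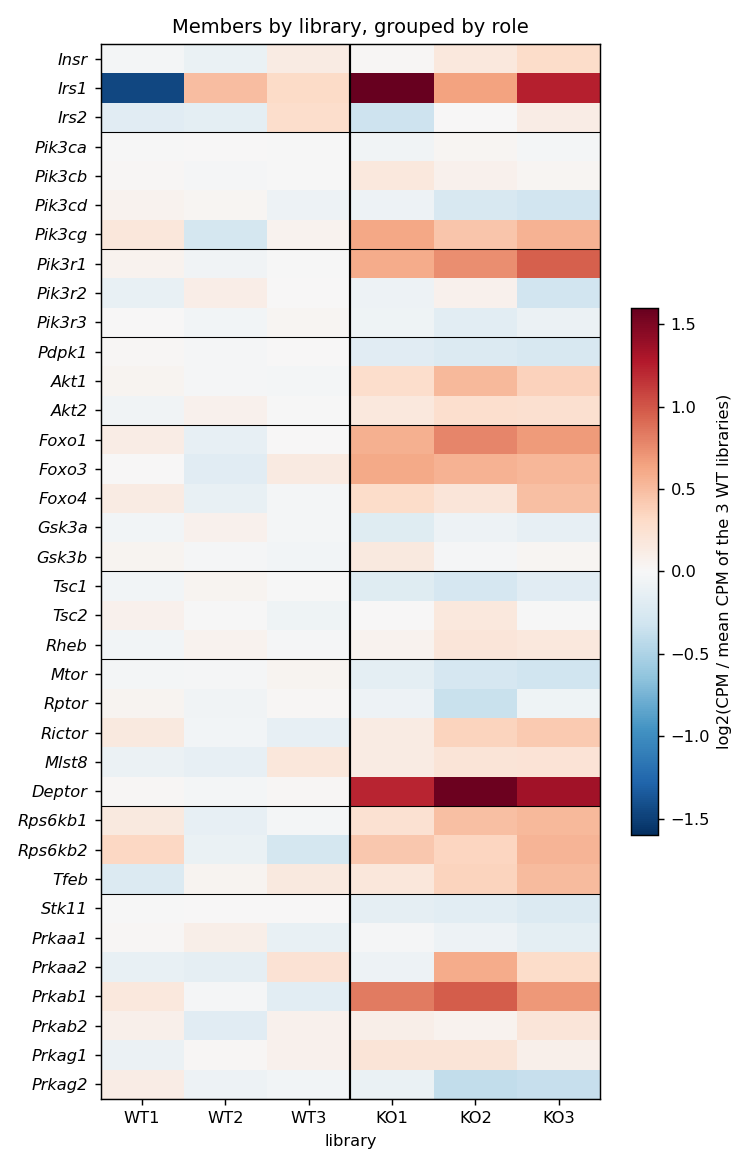
Colours give, for each member (rows, in the order of their roles) and library (columns), the log2 of CPM over the mean of the 3 WT libraries, red above and blue below it. *Deptor*, *Irs1*, *Pik3r1*, *Foxo1*, *Foxo3* and *Prkab1* are red in KO1, KO2 and KO3, while *Irs1* in WT1, at 0.58 CPM, is the darkest blue cell.

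The TSC complex brakes mTOR complex 1 through RHEB. *Tsc1*, on chromosome 2 from 28641228 to 28691167, was at 67.3, 71.5 and 69.2 CPM in WT and 60.4, 57.4 and 61.0 CPM in MLX KO libraries. It fell in every pair (LFC -0.22, SE 0.05, adjusted p = 0.00551 from edgeR). *Tsc2*, which holds the catalytic part of the complex, was at 44.8 to 49.5 CPM in WT and 46.6 to 52.7 CPM in MLX KO libraries and did not pass (LFC 0.05, adjusted p = 0.532 from edgeR). *Rheb* was at 17.7 to 18.9 CPM in WT and 18.9 to 20.9 CPM in MLX KO libraries and did not pass (LFC 0.15, adjusted p = 0.151 from edgeR).

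mTOR works in complex 1 with RPTOR and in complex 2 with RICTOR, both of which hold MLST8 and can be bound by the inhibitor DEPTOR. The largest change of all members was that of *Deptor*, on chromosome 15 from 55112317 to 55259271. It was at 4.80, 4.64 and 4.79 CPM in WT and 11.0, 14.1 and 12.0 CPM in MLX KO libraries. The WT libraries were nearly equal and each MLX KO library was more than 2 times as high, which gave a 2.60-fold higher level (LFC 1.38, SE 0.13, adjusted p = 1.93e-05 from edgeR). Over all 14 alternative settings the LFC of *Deptor* stayed between 1.28 and 1.52 and always passed. *Mtor*, on chromosome 4 from 148448611 to 148557683, was at 346, 348 and 363 CPM in WT and 318, 293 and 282 CPM in MLX KO libraries. It fell by 15.5% without overlap (LFC -0.24, SE 0.05, adjusted p = 0.00378 from edgeR), and with library size alone it had an LFC of -0.11 with an adjusted p of 0.0541 in edgeR.

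Of the complex partners, *Rictor* passed the test. It was at 31.2, 27.0 and 25.5 CPM in WT and 30.6, 35.7 and 37.3 CPM in MLX KO libraries. KO1 lay below WT1, so the groups overlapped although the gene passed (LFC 0.31, SE 0.10, adjusted p = 0.0216 from edgeR), and the call was lost without any 1 of WT2, WT3, KO2 or KO3 (LFC from 0.24 to 0.29) and in DESeq2 with the pair as a block (adjusted p = 0.112). *Rptor* was at 61.8, 57.5 and 60.8 CPM in WT and 56.5, 46.7 and 57.1 CPM in MLX KO libraries. It was lower without overlap but did not pass (LFC -0.17, SE 0.08, adjusted p = 0.0923 from edgeR). It passed with the pair as a block (adjusted p = 0.0362 from edgeR) and without KO1 (LFC -0.21, adjusted p = 0.0488 from edgeR). *Mlst8* was at 11.8 to 14.6 CPM in WT and 14.1 to 15.0 CPM in MLX KO libraries and did not pass (LFC 0.19, adjusted p = 0.144 from edgeR). It shares 22.5% of its exon bases with *Bricd5* on the opposite strand.

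All 3 substrates of mTOR complex 1 among the members had higher CPM in every MLX KO library than in any WT library (all genes 30.3%), and 1 passed the test. All 3 lay below the member median of 25.3 CPM, where 31.7% of all genes passed as higher. *Rps6kb1*, the S6 kinase, was at 18.1, 14.8 and 15.8 CPM in WT and 19.1, 22.7 and 23.2 CPM in MLX KO libraries (LFC 0.42, SE 0.10, adjusted p = 0.00704 from edgeR). KO1 was the closest to WT. Its relative *Rps6kb2* was counted 57, 35 and 35 times in WT libraries, against 63, 55 and 66 times in MLX KO libraries, with the same size of difference but a larger error (LFC 0.43, SE 0.20, adjusted p = 0.0967 from edgeR), and shares 23.7% of its exon bases with *Ptprcap* on the opposite strand. *Tfeb*, the regulator of lysosome genes that mTOR complex 1 keeps in the cytoplasm, was at 4.80, 5.79 and 6.26 CPM in WT and 6.34, 7.19 and 7.94 CPM in MLX KO libraries. It did not pass (LFC 0.35, SE 0.14, adjusted p = 0.0667 from edgeR). It passed with the pair as a block (adjusted p = 0.0422 from edgeR), without KO1 (LFC 0.44, adjusted p = 0.0296 from edgeR) and with library size alone (LFC 0.49, adjusted p = 0.0231 from edgeR).

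Of the 7 AMPK and LKB1 members, 1 was higher and 2 were lower (14.3% and 28.6%, all genes 24.8% and 20.6%). The higher gene lay below the member median of 25.3 CPM and the 2 lower genes above it. AMPK is a trimer of a catalytic alpha, a scaffolding beta and a nucleotide-sensing gamma subunit. *Prkab1*, the beta-1 subunit on chromosome 5 from 116013586 to 116024508, was at 8.17, 7.19 and 6.48 CPM in WT and 12.9, 14.3 and 11.8 CPM in MLX KO libraries. The genotypes were clearly apart (LFC 0.83, SE 0.12, adjusted p = 3.25e-04 from edgeR), a 1.78-fold higher level. *Prkab2* was at 23.5, 19.6 and 23.3 CPM in WT and 23.6, 23.0 and 25.3 CPM in MLX KO libraries, overlapping (LFC 0.11, adjusted p = 0.327 from edgeR). *Prkag2*, the gamma-2 subunit on chromosome 5 from 24862744 to 25100642, was at 288, 250 and 256 CPM in WT and 246, 201 and 205 CPM in MLX KO libraries. KO1 lay just under the lowest WT library, and the gene was lower (LFC -0.29, SE 0.08, adjusted p = 0.0129 from edgeR), a call lost without WT1, KO2 or KO3 (LFC from -0.24 to -0.22). *Prkag1* went the other way without passing (LFC 0.17, adjusted p = 0.103 from edgeR), from 19.6 to 21.9 CPM in WT and 22.1 to 24.1 CPM in MLX KO libraries, and 43.7% of its exon bases are shared with the antisense gene *B130046B21Rik*. Neither catalytic subunit passed, *Prkaa1* with an LFC of -0.09 and *Prkaa2* with 0.29, the latter from 45 to 86 counts a library. *Stk11*, which codes for the upstream kinase LKB1 and lies on chromosome 10 from 80115803 to 80130682, was at 118, 119 and 119 CPM in WT and 108, 106 and 102 CPM in MLX KO libraries. It fell by 11.0% (LFC -0.17, SE 0.05, adjusted p = 0.0118 from edgeR), a call lost without KO3 (LFC -0.14).

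Because the ratio of 2 genes in a library does not depend on the scaling, related subunits were also compared as log2 count ratios within each library. Of 13 such ratios 7 did not overlap between genotypes, where 52.5% of all pairs of tested genes did not overlap, so the count was near that background. With 3 libraries against 3 the exact two-sided permutation test cannot go below 0.1, which all 7 reached (0.186 after Benjamini-Hochberg adjustment over the 13). *Pik3r1* over *Pik3r2* was 0.154, 0.121 and 0.134 for the WT and 0.216, 0.217 and 0.324 for the MLX KO libraries, a difference of 0.87 on the log2 scale (SE 0.22). *Prkab1* over *Prkab2* was 0.348, 0.366 and 0.278 for the WT and 0.546, 0.622 and 0.464 for the MLX KO libraries, a log2 difference of 0.72 (SE 0.17). *Prkag1* over *Prkag2* rose by 0.46 (SE 0.14) on the log2 scale and *Akt1* over *Akt2* by 0.17 (SE 0.07), in both cases in 3 of 3 pairs. *Rptor* over *Rictor* was 1.98, 2.13 and 2.38 for the WT and 1.85, 1.31 and 1.53 for the MLX KO libraries, a log2 difference of -0.48 (SE 0.16). *Tsc1* over *Tsc2* and *Pik3ca* over *Pik3cb* were lower by -0.27 (SE 0.10) and -0.11 (SE 0.06). *Irs1* over *Irs2* differed most in the mean (1.41, SE 0.67), but its libraries overlapped and the second pair showed no rise (-0.01). The ratio of *Rps6kb1* to *Rps6kb2* differed by -0.04 (SE 0.15) and that of *Foxo1* to *Foxo3* by 0.10 (SE 0.11), both overlapping.

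**Figure D4:**
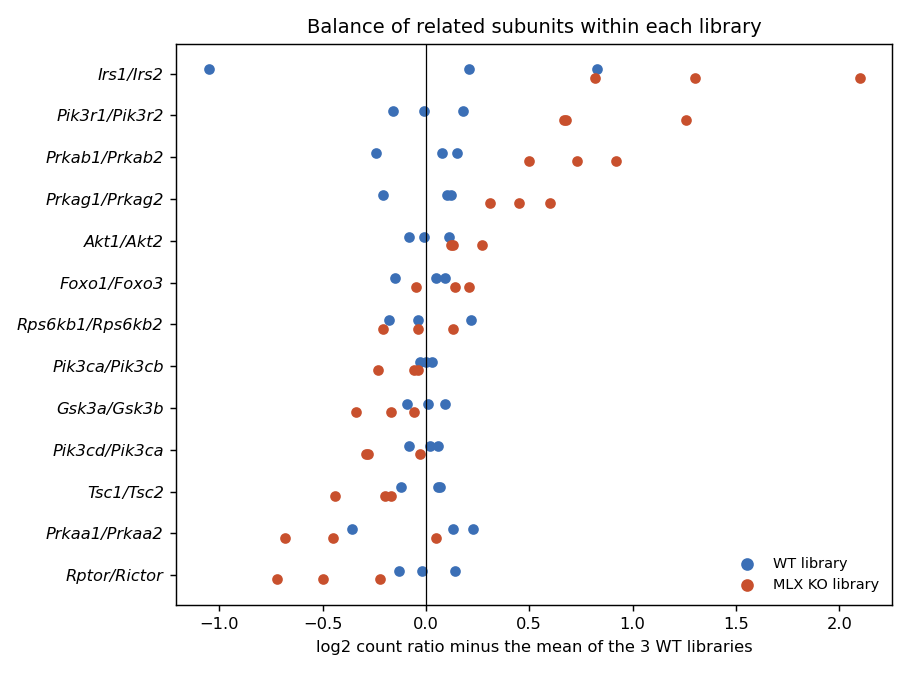
Each point is 1 library, with the log2 count ratio of 2 related genes minus the mean of the 3 WT libraries on the x axis, WT in blue and MLX KO in red. *Pik3r1*/*Pik3r2* and *Prkab1*/*Prkab2* sit to the right of all WT libraries and *Rptor*/*Rictor* and *Tsc1*/*Tsc2* to the left, while *Irs1*/*Irs2* has the widest spread.

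The scaling changed the calls of genes with small differences in either direction. With library size alone, *Insr*, *Pik3cb*, *Foxo4*, *Gsk3b*, *Tsc2*, *Rheb*, *Mlst8*, *Rps6kb2*, *Tfeb* and *Prkag1* passed as higher, with an LFC from 0.19 for *Tsc2* to 0.57 for *Rps6kb2*. Among the lower members, *Pdpk1* had an LFC of -0.08, *Tsc1* -0.08, *Pik3cd* -0.08, *Stk11* -0.03 and *Prkag2* -0.15, none of them past the threshold. *Pik3r1*, *Akt1*, *Akt2*, *Foxo1*, *Foxo3*, *Deptor*, *Rps6kb1* and *Prkab1* passed in edgeR and DESeq2 under each of the 14 alternative settings. These 8 genes held their direction whether libraries were scaled by TMM, by the other size factors or by total counts. Library size alone raised the median LFC of all genes by 0.14, which favours higher calls and cannot test them. The other size factors moved that median by only -0.03 and 0.01, so no scaling lowered it by a like amount. In DESeq2 with the pair as a block, *Akt2* (adjusted p = 0.0435) and *Rps6kb1* (adjusted p = 0.0496) passed narrowly.

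**Figure D5:**
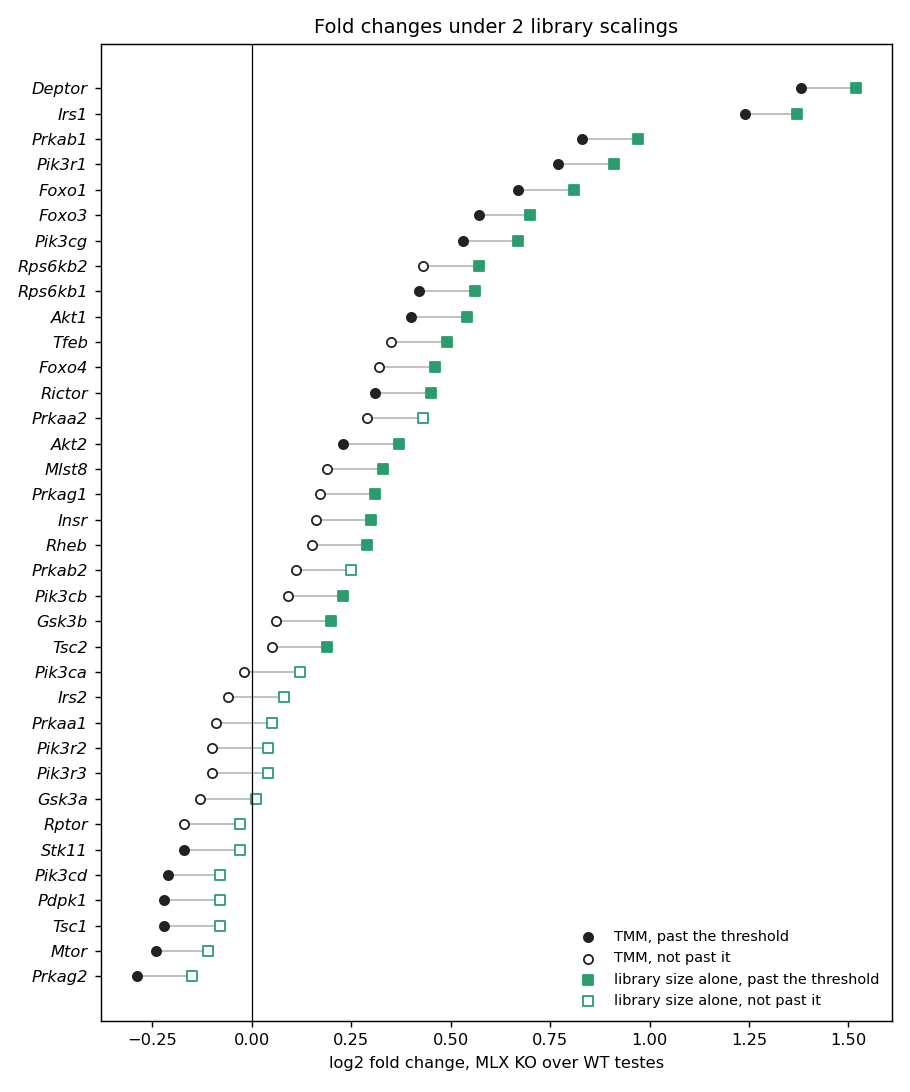
Fold changes (log2, MLX KO over WT) of the members with TMM scaling (black circles) and with library size alone (green squares), joined by a line for each gene, with filled symbols past an adjusted p of 0.05. Library size alone moves every member to the right, gives 21 higher and 0 lower members in place of 11 and 6, and leaves *Deptor* at the top under both.

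Other genes of the same pathways, 109 of them with a row in the table and 106 tested, gave a background of the same kind. Of these, 24 were higher and 20 lower (22.6% and 18.9%, all genes 24.8% and 20.6%), with a median LFC of 0.03. The largest increase was that of *Foxo6*, a further FOXO factor, at 3.06, 2.29 and 2.26 CPM in WT and 5.73, 8.02 and 6.78 CPM in MLX KO libraries (LFC 1.42, SE 0.18, adjusted p = 1.58e-04 from edgeR). *Ddit4*, the stress-induced inhibitor of mTOR complex 1 also called REDD1, was at 12.2, 13.0 and 13.8 CPM in WT and 22.8, 25.8 and 23.5 CPM in MLX KO libraries. It rose without overlap (LFC 0.89, SE 0.09, adjusted p = 2.79e-05 from edgeR). The PI3K adaptor *Pik3ap1* (LFC 0.82), the insulin receptor brake *Grb14* (0.78), the AKT substrate *Tbc1d4* (0.70, groups overlapping) and the Rag GTPase *Rragd* (0.69) followed. The call on *Grb14* was lost without KO2 (LFC 0.61) and in DESeq2 with the pair as a block (0.72), and that on *Tbc1d4* without any 1 of WT2, WT3, KO1 or KO2 (0.48 to 0.75).

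The largest decrease by the same rule was that of *Irs4*, an insulin receptor substrate, at 8.28, 7.31 and 7.27 CPM in WT and 3.97, 4.09 and 4.24 CPM in MLX KO libraries (LFC -0.90, SE 0.13, adjusted p = 2.9e-04 from edgeR). *Irs4* and *Irs1* thus moved in opposite directions. The other decreases named by the rule were small, with an LFC of -0.33 for the phosphatidate phosphatase *Lpin1*, -0.29 for the autophagy kinase *Ulk2*, -0.26 for the AMPK substrate *Acaca*, and -0.25 for both the phosphoinositide phosphatase *Inpp5k* and the AKT phosphatase *Phlpp1*. In the list of amino acid sensing genes 7 of 24 were higher and 1 lower, among AMPK partners and targets 7 of 24 were higher and 6 lower, and among relatives and partners of AKT 4 of 12 were higher and 5 lower. In the mTOR complex partners and outputs 4 of 21 were higher and 3 lower, in the PI3K relatives and phosphoinositide phosphatases 1 of 15 was higher and 4 lower, and in the insulin receptor adaptors 1 of 10 was higher and 1 lower.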

How the data were processed

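RNA from 6 whole testes libraries was sequenced. The authors aligned reads to mm10 with TopHat, with bcl2fastq 1.8.4 in the submitters' processing notes, and deposited 1 table of whole-number counts per gene symbol, without normalization. The counting tool, gene annotation and strand setting are not given in the sources used here. A further 6 columns of the deposited table give the comparison the authors made themselves (a mean normalized signal, log2 fold changes and their errors, a test score, and p-values with their adjusted values), none of which was used. The 16 ChIP-Seq samples were not analysed here.

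Of 17933 rows, 2 repeated another, leaving 17931 symbols. Counts were filtered with filterByExpr at its minimum of 10, scaled by TMM and tested by edgeR 4.0.16 (R 4.3.3) with genotype as the only term, two-sided, with Benjamini-Hochberg adjustment over the 14640 genes tested and a threshold of 0.05. DESeq2 1.42.0 was an alternative, as were other size factors, other filters, the littermate pair as a block, and leaving out each library. TMM factors were 0.9435 to 0.9612 in WT and 1.021 to 1.066 in MLX KO libraries. The SE of an LFC was derived from the edgeR test, as the absolute LFC over the square root of its F statistic. Ratios used counts plus 0.5, and their SE came from the variances of the libraries. Exon lengths, positions and overlaps came from GENCODE vM21, which may differ from the annotation used for counting. Totals of 16674678 to 19742726 counts limit the precision of low genes, and members had 11 to 6572 counts a library.

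The samples are titled as paired replicates and the study describes littermate pairs. Deviations from the group means correlated at 0.145, 0.0363 and 0.121 for libraries of one number, and at 0.0330 or less for other pairings of WT with MLX KO libraries. The fit reported leaves the pair out.

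The members and gene lists were chosen with earlier results of these data known. All 36 members are named. Of other pathway genes, the 6 largest increases and 6 largest decreases, and of FOXO targets the 4 largest of each, are named among genes past the threshold and of one direction in 3 of 3 pairs. Of each marker list the gene of highest CPM is named in the closing section, apart from 1 item that is not reported here. *Aif1* and *Fcgr3* in the report were named after their values were seen. Of the 110 other pathway genes listed, 109 had a row, 2 of them under an older symbol. On simulated data for MLX KO against WT, edgeR recovered 100 of 100 genes changed 2-fold and 70 of 100 changed 1.5-fold among 14671 genes tested and called 4 unchanged genes. The simulation gave all genes the same dispersion and changed only 200 genes of ample counts, as many up as down. It had no outlying library and no change across much of the table, where 45.4% of genes passed in the real data. Its rates therefore check the code and do not give the recovery or error rate of the real comparison.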

Additional observations from a re-analysis of the deposited data

How the results depend on the processing

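The count of higher members (11) lay between 8 and 21 over all 14 alternatives, with 21 under library size alone, and the count of lower members (6) between 0 and 7, with 0 under library size alone. Leaving out 1 library gave 9 to 13 higher and 3 to 7 lower members, with 3 lower without KO3. With the replicate block in edgeR, the paired fit, 13 members were higher and 7 lower, and with the block in DESeq2 8 were higher and 6 lower. Added to edgeR, the block moved *Foxo4*, *Tfeb* and *Rptor* past the threshold, and added to DESeq2 it moved *Irs1* and *Rictor* out of it. It changed no other call of a member within either tool. *Pik3cg* did not pass in DESeq2 with or without the block. Of the other genes named, *Grb14*, *Fbxo32*, *Sesn3* and *Uchl1* lost their calls under DESeq2 with the block, and *Uchl1* also in edgeR with it. Other pathway genes called (44) numbered 25 under DESeq2 with the block and 28 to 56 on leaving out 1 library, with 28 without KO2. FOXO target genes called (11) numbered 6 under DESeq2 with the block. Over all genes, library size alone gave 5343 higher and 1268 lower in place of 3634 and 3015. Without KO1, *Insr* (LFC 0.23), *Tfeb* (0.44) and *Rptor* (-0.21) passed, as did *Mlst8* without WT3 (0.29) and *Rps6kb2* without WT1 (0.64). The causes of these differences were not tested.

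Signs reversed for members that did not pass. Under library size alone the LFC was 0.08 for *Irs2*, 0.12 for *Pik3ca*, 0.04 for both *Pik3r2* and *Pik3r3*, 0.01 for *Gsk3a* and 0.05 for *Prkaa1*. On leaving out 1 library it ranged from -0.15 to 0.11 for *Irs2*, from -0.04 to 0.00 for *Pik3ca*, from -0.18 to 0.00 for *Pik3r2*, and from -0.01 to 0.19 for the marker *Vwf*. With 3 libraries a genotype the depth limits genes of few counts, such as *Irs1*, *Prkaa2* and *Rps6kb2*.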

Other observations

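Genes listed as FOXO targets, 17 of 20 of them tested, were higher for 10 and lower for 1 in MLX KO testes (58.8% and 5.88%, all genes 24.8% and 20.6%), with a median LFC of 0.59. Among all genes at or below 25.3 CPM, 31.7% were higher and 5.38% lower. The 20 listed genes together held 230 to 248 CPM in WT libraries. The list was chosen with earlier results of these data known. *Gadd45a*, a growth arrest gene, was at 2.16, 2.35 and 1.86 CPM in WT and 5.47, 4.92 and 5.35 CPM in MLX KO libraries (LFC 1.31, SE 0.16, adjusted p = 1.25e-04 from edgeR). The MLX KO libraries were all above the WT libraries. *Klf15*, a metabolic transcription factor (LFC 1.16, SE 0.19), *Cat*, which codes for catalase (0.96, SE 0.14), and *Fbxo32*, a ubiquitin ligase subunit (0.86, SE 0.17), also rose without overlap. *Sesn3*, a sestrin, was at 32.0, 31.1 and 31.6 CPM in WT and 27.5, 25.9 and 27.6 CPM in MLX KO libraries (LFC -0.22, SE 0.06, adjusted p = 0.0146 from edgeR), a call lost without KO2 (-0.19) and with library size alone (-0.09). These genes respond to other factors as well, RNA levels do not measure FOXO activity, and Sertoli and Leydig markers rose in the same libraries (10 of 10 and 9 of 9), a link whose part was not tested.

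The marker of highest CPM in 9 of the lists gave an LFC of 0.17 for *Uchl1* (spermatogonia), -0.16 for *Piwil1* (spermatocyte), -0.50 for *Pgk2* (round spermatid), -0.74 for *Prm2* (elongating spermatid), 0.78 for *Clu* (Sertoli), 1.93 for *Insl3* (Leydig), -0.33 for *Aif1* (macrophage), 0.06 for *Vwf* (endothelial) and -0.39 for *Actg2* (peritubular myoid). All of these but *Vwf* passed the threshold in edgeR, *Uchl1* narrowly (adjusted p = 0.0435) and not in DESeq2. *Aif1* and *Actg2* went against most of their lists, since 10 of 12 macrophage markers (median LFC 1.21) and 4 of 6 peritubular myoid markers (median LFC 0.44) were higher.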
